A study of Mus musculus with 5 samples.

Results

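The MHC class I antigen processing pathway was examined through 10 genes in cancer cells from mouse lungs. These members were given by name, and all 10 were among the 23771 genes of the deposited table: the heavy chains H2-K1 and H2-D1, the light chain B2m, the transporter subunits Tap1 and Tap2, the tapasin gene Tapbp, the immunoproteasome subunits Psmb8, Psmb9 and Psmb10, and Nlrc5. The cancer cells were 4T1 cells, a mammary carcinoma line of BALB/c mice, which carried a lentiviral CD90.1 reporter. Female BALB/c mice, 6 weeks old at the start, received intravenous tumor-secreted factors (TSF) or control medium (CM) 3 times per week for 3 weeks. TSF was medium conditioned by pieces of primary tumors and pooled from 3 tumors, and CM was the same medium kept without tumor. All mice then received 25000 cancer cells by vein, and the lungs were taken at day 16, when the mice were 11 weeks old. Lungs of 3 mice were pooled into each library, and each group had 1 library.

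MHC class I molecules display peptides from inside a cell to CD8 T cells, and natural killer cells sense their loss. Proteins are cut by the proteasome, in which interferon-induced subunits can replace the constitutive ones, and the peptides are carried into the endoplasmic reticulum by the TAP transporter. There tapasin helps to load them onto a heavy chain bound to beta-2-microglobulin. Interferon gamma induces most genes of this pathway, in part through the transactivator Nlrc5, and tumour cells with low class I are known to be seen less well by T cells.

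The TSF library held 139 cancer cells with a median of 26615 UMIs (unique molecular identifiers, 1 for each captured transcript), and the CM library held 29 with a median of 27679. Under 10000 UMIs were found in 10.1% of the TSF cells and 27.6% of the CM cells. The libraries shared 31 cell barcodes over all cell types and 0 among cancer cells. The keratins Krt8 and Krt18, which mark epithelial cells, were seen in 96.6% or more of the cancer cells of either library. Other markers differed between the libraries. The adhesion gene Epcam was seen in 68.3% of TSF and 27.6% of CM cells, and the CD90.1 reporter in 34.5% and 6.90%. The authors' clustering split the cancer cells into a pair of clusters, and 1 of them held 54 of 139 TSF cells and 23 of 29 CM cells. The authors also subtracted ambient RNA from the counts of each library, and values of the members in other cell types were not used here. The part of these differences and of that subtraction in the values of the members was not tested.

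Reads were mapped to GRCm38, the genome of C57BL/6J mice, whereas BALB/c mice carry other class I alleles. Heavy chain genes are also close paralogs. How reads were split between alleles and paralogs was not tested, so values of single heavy chain genes are uncertain.

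The promoters of members from different chromosomes are shown first. Of the 10 members, 7 lie on chromosome 17 in the MHC, B2m lies on chromosome 2, and Psmb10 and Nlrc5 lie on chromosome 8. RefSeq promoter windows of GRCm38.p6, with 250 bases before the start site and 50 after it, were found for 8 members. Tap2 and Nlrc5 had none. The windows below belong to the heavy chains, the light chain and Tap1, the member with the largest fold difference. Capitals mark matches, on either strand, to the interferon regulatory factor (IRF) motif AANNGAAA and to GGGATTCC, the centre of the kB element known from class I promoters, whose letters were chosen after these promoters were seen. The Tap1 window holds neither and has no capitals.
H2-K1 (chr17:34000298-34000597, minus strand): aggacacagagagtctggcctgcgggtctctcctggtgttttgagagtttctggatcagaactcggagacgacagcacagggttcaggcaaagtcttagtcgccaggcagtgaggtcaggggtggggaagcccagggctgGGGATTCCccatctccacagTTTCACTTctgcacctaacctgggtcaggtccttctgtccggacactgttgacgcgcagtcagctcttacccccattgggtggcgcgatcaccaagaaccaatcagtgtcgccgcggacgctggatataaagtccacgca
H2-D1 (chr17:35262844-35263143, plus strand): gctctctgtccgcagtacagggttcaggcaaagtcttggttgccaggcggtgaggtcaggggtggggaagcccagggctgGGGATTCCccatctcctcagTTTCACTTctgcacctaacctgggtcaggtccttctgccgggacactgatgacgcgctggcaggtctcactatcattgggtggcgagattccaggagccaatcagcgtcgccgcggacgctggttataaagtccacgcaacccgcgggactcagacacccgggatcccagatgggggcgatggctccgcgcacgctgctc
B2m (chr2:122147437-122147736, plus strand): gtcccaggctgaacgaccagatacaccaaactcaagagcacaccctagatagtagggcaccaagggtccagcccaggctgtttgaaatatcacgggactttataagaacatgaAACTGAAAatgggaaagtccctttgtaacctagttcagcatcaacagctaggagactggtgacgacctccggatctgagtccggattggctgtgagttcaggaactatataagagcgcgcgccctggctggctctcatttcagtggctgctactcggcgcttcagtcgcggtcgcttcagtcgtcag
Tap1 (chr17:34187306-34187605, plus strand): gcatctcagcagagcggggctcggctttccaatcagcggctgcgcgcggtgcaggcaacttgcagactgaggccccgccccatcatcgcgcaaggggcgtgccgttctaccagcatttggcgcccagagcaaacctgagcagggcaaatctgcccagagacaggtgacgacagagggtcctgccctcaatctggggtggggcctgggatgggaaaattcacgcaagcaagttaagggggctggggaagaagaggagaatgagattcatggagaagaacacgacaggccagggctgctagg

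In H2-K1 and H2-D1 the kB match and the IRF match stood in the same order, with 20 bases from the start of one to the start of the other. B2m held the IRF letters at 137 to 130 bases before its start site. The IRF motif was in 3 of 8 member windows (37.5%) and in 26.7% of the 27025 genes with a window, a share near the background. The kB letters were in 2 of 8 (25.0%) and in 1.23% of all genes, and nothing is read from this, because the letters were chosen on these promoters and the 2 genes are paralogs. CCAAT, the letters bound by NF-Y, was in 6 of 8 (75.0%) and in 41.1% of all genes, but the matches of Tap1 and Psmb9 are the same bases in the stretch that their windows share. TTCNNNGAA, the STAT site GAS, was in 1 of 8 (12.5%), in Psmb8, against 9.55% of all genes. Tap1 and Psmb9 are transcribed in opposite directions from start sites 226 bases apart, and 275 bases of their windows are the same. Neither the IRF nor the GAS letters were in that stretch. Outside the members, the IRF letters were in 12 of 13 other class I heavy chain genes with a window (92.3%). Heavy chain genes are close paralogs, so these windows are not independent. Of 12 listed proteasome core and assembly genes with a window, 4 held the IRF letters (33.3%). All of these matches are letters in reference sequence and not measured binding.

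**Figure D1:**
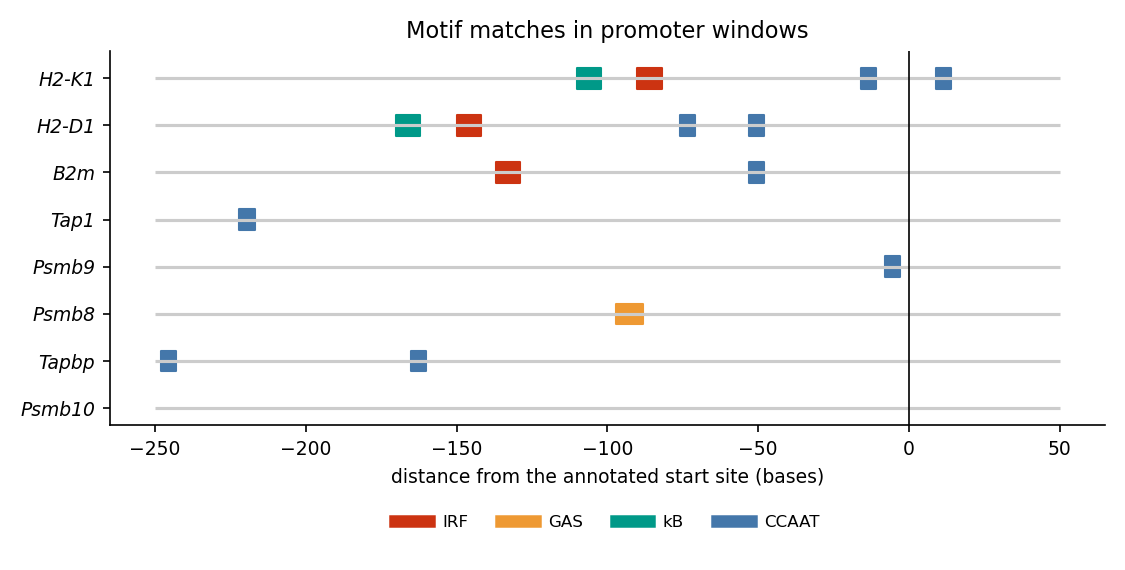
Matches to 4 motifs in the promoter windows of 8 members, by distance in bases from the annotated start site (vertical line). Each grey line is 1 window and each coloured block 1 match on either strand. H2-K1 and H2-D1 hold a kB match followed by an IRF match, and the Psmb10 window holds none of the 4.

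The main question was whether the class I pathway differed between cancer cells of TSF and CM lungs. Mean expression, in UMIs per 10000 UMIs of a cell (CP10k), was lower in the TSF cells for all 10 members, by 1.88-fold (B2m) to 6.92-fold (Tap1). Fold changes were also put on the scale of log2 of mean CP10k plus 1, on which low genes are understated. On that scale 9 of 10 members were lower by 1.5-fold or more. There were 10201 genes tested, each with a UMI in 10% or more of the cells in TSF, in CM or in both. Of these, 1.95% were lower by 1.5-fold or more, and 0.755% were higher by as much. Genes with a low mean in CM could not pass as lower on this scale, which holds the share of all genes down. Of the 1526 genes with a mean of at least 1 CP10k over both libraries, 19.0% were lower by 1.5-fold in plain ratio. So were the 9 members among them, and that limit was chosen after seeing the data. The median log2 fold change was -0.87 for the members and -0.03 for all genes tested. By plain ratio these medians were -1.18 and -0.20. With 1 library per group there is no replicate check, and no test was made. The spread of CP10k between cells was not given, so the means carry no error.

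The heavy chains and the light chain were among the most abundant members. H2-D1 (ENSMUSG00000073411, chromosome 17, 35262730 to 35267499, plus strand) had a mean of 34.9 CP10k in the CM cells and 15.7 in the TSF cells, which was 2.23-fold lower. H2-K1 (ENSMUSG00000061232, chromosome 17, 33996017 to 34000347, minus strand) had 28.9 CP10k in CM and 13.0 in TSF, which was 2.22-fold lower. The heavy chains thus differed by nearly the same factor, and the ratio of H2-D1 to H2-K1 was 1.21 in both libraries. B2m, which pairs with every class I heavy chain (ENSMUSG00000060802, chromosome 2, 122147686 to 122153083, plus strand), had 26.0 CP10k in CM and 13.8 in TSF. In a cell of median depth these means correspond to 72.0 UMIs of B2m in CM and 36.8 in TSF. Together the 3 genes took 0.898% of CP10k in CM cells and 0.425% in TSF cells. All 29 CM cells had a UMI of each, as had 137 of 139 TSF cells for H2-D1 and 138 for H2-K1 and B2m. Detection was thus near its ceiling, and the difference lay in the mean level and not in the share of cells with a UMI. How it was spread over the cells was not given.

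**Figure D2:**
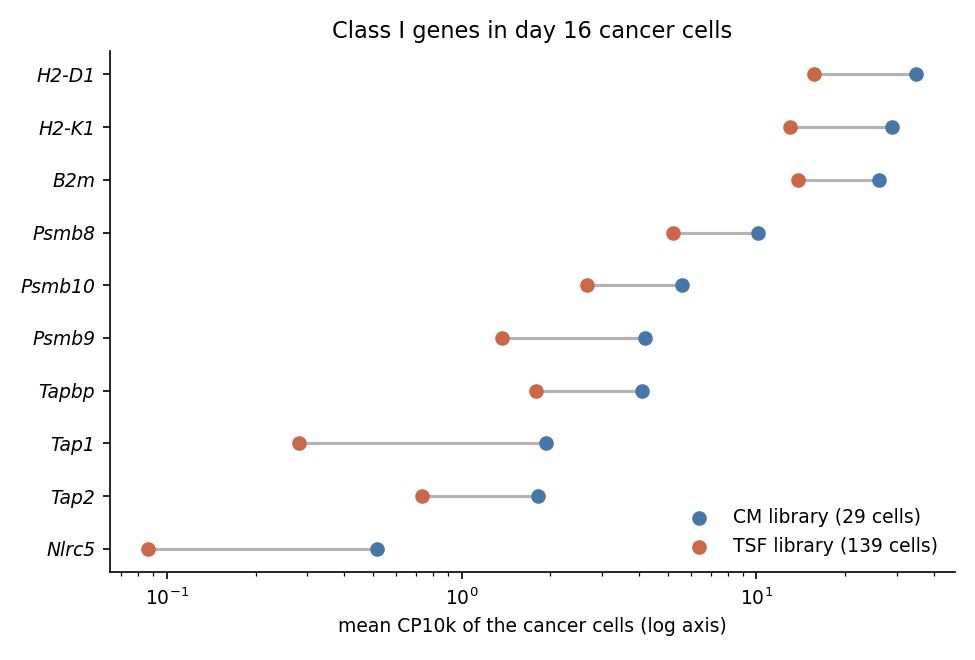
Mean CP10k (log axis) of the 10 members in the cancer cells of the CM library (29 cells) and the TSF library (139 cells) at day 16. Each point is the mean of 1 library, and the TSF point lies to the left of the CM point for every member.

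Transporter and loading genes were lower as well. Tap1, a subunit of the peptide pump (ENSMUSG00000037321, chromosome 17, 34187553 to 34197225, plus strand), had 1.94 CP10k in CM and 0.280 in TSF, a log2 fold change of -1.20. It was seen in 23 of 29 CM cells (79.3%, 95% exact interval 60.3 to 92.0%) and in 56 of 139 TSF cells (40.3%, interval 32.1 to 48.9%). Tap1 was the only member whose intervals lay apart. The share of all genes tested with intervals apart was not computed, so this count has no background beside it. Among cells with a UMI of Tap1 the mean was still 3.51-fold lower in TSF, at 0.695 against 2.44 CP10k. In a cell of median depth 1 UMI is 0.376 CP10k in TSF and 0.361 in CM, so the TSF mean rests on few UMIs. Cells with few UMIs in all, more frequent in CM, give more CP10k for each UMI. Their part in these means was not tested. Tap2, the partner subunit (ENSMUSG00000024339), had 1.82 CP10k in CM and 0.736 in TSF, 2.48-fold lower, and was seen in 86.2% and 73.4% of cells. The ratio of Tap1 to Tap2 was 1.06 in CM and 0.380 in TSF, which shows that the subunits differed by unequal factors. Tapbp (ENSMUSG00000024308) had 4.10 CP10k in CM and 1.78 in TSF, 2.30-fold lower. It was seen in all 29 CM cells (interval 88.1 to 100%) and in 127 of 139 TSF cells (91.4%, interval 85.4 to 95.5%), and these intervals overlap.

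The immunoproteasome subunits were lower, and the constitutive subunits whose place they take were not. Psmb8 (ENSMUSG00000024338) had 10.2 CP10k in CM and 5.20 in TSF, 1.95-fold lower. Psmb9, which shares its start region with Tap1 (ENSMUSG00000096727), had 4.18 in CM and 1.37 in TSF, 3.06-fold lower. Psmb10 (ENSMUSG00000031897, chromosome 8, 105935735 to 105938444, minus strand) had 5.61 in CM and 2.67 in TSF, 2.10-fold lower. None of the 3 constitutive subunits passed 1.5-fold on the log2 scale of CP10k plus 1. Psmb5, the counterpart of Psmb8, had 2.21 CP10k in CM and 3.70 in TSF. It was 1.67-fold higher in TSF by plain ratio, with a log2 fold change of 0.55 on that scale. The values of Psmb6 and Psmb7 were 2.21 and 1.39 in CM and 2.58 and 1.49 in TSF. The ratio of 2 genes within a library does not depend on a factor common to all its cells. The total of each cell still weights both means. Psmb8 over Psmb5 was 4.59 in CM and 1.41 in TSF. Psmb9 over Psmb6 was 1.89 and 0.529, and Psmb10 over Psmb7 was 4.04 and 1.78. In CM cells each immunoproteasome subunit thus exceeded its counterpart, and in TSF cells Psmb9 did not.

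Nlrc5 (ENSMUSG00000074151, chromosome 8, 94434356 to 94527272, plus strand), which drives transcription of class I genes, was the least abundant member. It had 0.517 CP10k in CM and 0.0865 in TSF. That is 5.97-fold lower, but the log2 fold change of CP10k plus 1 was -0.48, and Nlrc5 was the 1 member that did not pass 1.5-fold on that scale. It was seen in 12 of 29 CM cells (41.4%, interval 23.5 to 61.1%) and in 28 of 139 TSF cells (20.1%, interval 13.8 to 27.8%), and the intervals overlap. In a cell of median depth its mean corresponds to 1.43 UMIs in CM and 0.230 in TSF.

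In detection, 2 of 10 members, Tap1 and Nlrc5, were seen in fewer TSF cells by 20 percentage points or more, against 3.33% of all genes tested. This readout says little about the other members, because 6 of 10 were seen in over 90% of cells in both libraries. Among cells with a UMI of the gene, the mean CP10k was lower in TSF for each member, by 1.87-fold to 3.51-fold. By log2 fold change of CP10k plus 1, 8 members were in the lowest 1% of all genes tested. Tap2 stood at 1.26% and Nlrc5 at 3.18%. That scale understates low genes, so these ranks favour abundant ones. Ranks by plain ratio were not computed, and by plain ratio 29.9% of all genes tested were lower by 1.5-fold or more.

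**Figure D3:**
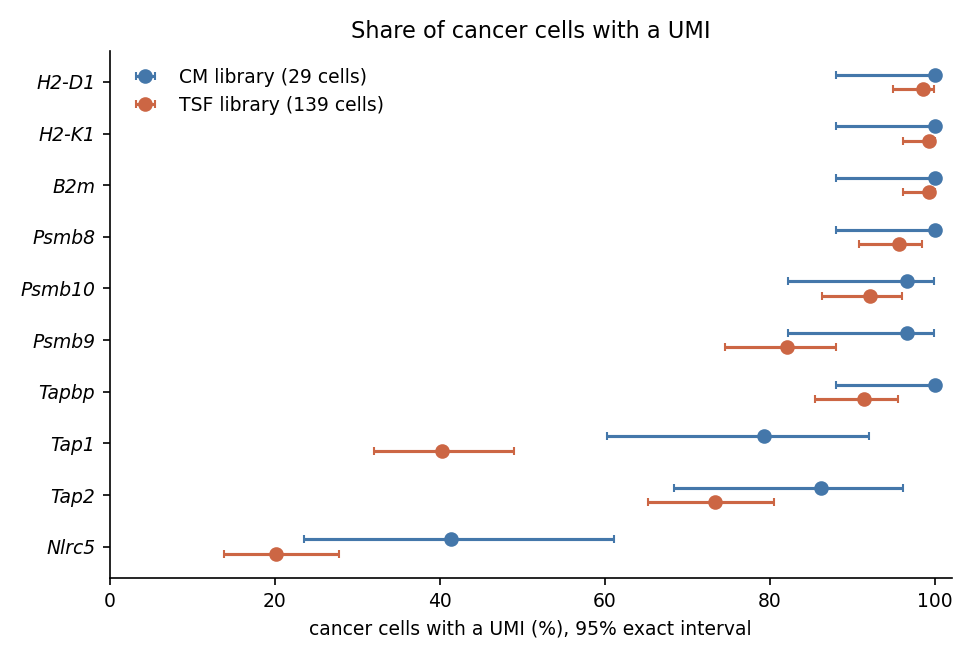
Share of cancer cells with a UMI of each member, in percent, in the CM library (29 cells) and the TSF library (139 cells), with exact 95% intervals that cover counting error only. The 2 intervals of Tap1 lie apart, those of the other members overlap, and H2-K1, H2-D1 and B2m lie near 100% in both libraries.

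Other class I heavy chain genes were measured beside the members. The list had 18 genes, of which 16 were in the table and 13 were tested. Of these, 6 were lower in TSF by 1.5-fold or more on the log2 scale and 0 were higher. The median log2 fold change was -0.29. The largest difference was in H2-Q4, with 8.53 CP10k in CM and 2.44 in TSF. H2-Q6 had 6.12 and 2.67, H2-Q7 had 2.01 and 0.651, H2-Q1 had 1.94 and 0.893, and H2-T22 had 1.66 and 0.596. H2-T23, which encodes Qa-1, a ligand of natural killer cell receptors, had 2.16 CP10k in CM and 0.942 in TSF. It was seen in 96.6% of CM and 73.4% of TSF cells, and H2-Q7 in 96.6% and 66.9%, and for both genes the intervals lay apart. Here too the share over all genes was not computed. The other 7 genes tested, among them H2-M3 (0.716 and 0.406 CP10k) and the lipid-presenting Cd1d1 (0.199 and 0.0726), did not pass 1.5-fold on that scale. Some of them, Cd1d1 included, were too low in CM to pass as lower, even with no UMI in TSF. By plain ratio 11 of the 13 genes were lower by 1.5-fold or more, against 29.9% of all genes tested.

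Most general chaperones and proteasome genes did not pass 1.5-fold on the log2 scale of CP10k plus 1. Of 5 other loading factors 1 passed, Pdia3 (ERp57, a disulfide isomerase of the loading complex), with 7.48 CP10k in CM and 4.20 in TSF. The lectin chaperones Calr (3.02 and 3.72) and Canx (3.63 and 3.27) did not pass. The tapasin-related Tapbpl (0.755 and 0.240) and the peptide-trimming Erap1 (0.873 and 0.343) did not pass either, although their plain ratios were 3.14 and 2.55. None of the 4 proteasome activator genes passed, although 2 were lower by 1.5-fold or more by plain ratio. The most abundant were Psme1 (8.27 and 6.86) and Psme2 (7.94 and 5.40), the subunits of PA28. None of the 12 other genes of the 20S core and its assembly passed in either direction. By plain ratio 1 of the 12 was lower and 1 higher by 1.5-fold or more. The median log2 fold change of the 12 was 0.09. The assembly factor Pomp had the highest, 0.56, with 2.15 CP10k in CM and 3.64 in TSF.

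Interferon signalling genes upstream of class I differed among themselves. Of the 13 genes 0 were higher by 1.5-fold or more, and Irf1 and Socs1 were among those lower by as much. Irf1, which binds class I promoters, had 6.64 CP10k in CM and 1.39 in TSF. Socs1, a feedback inhibitor induced by the pathway, had 2.65 and 0.385. Receptors and kinases did not pass: Ifngr1 had 0.504 CP10k in CM and 0.548 in TSF, Ifngr2 had 0.526 and 0.319, Jak1 had 0.854 and 0.721, and Jak2 had 0.775 and 0.722. Stat2, Irf2 and Irf9 had log2 fold changes of -0.57, -0.40 and -0.58 and did not pass, although their plain ratios were 3.10, 2.02 and 4.03. Irf9 was seen in 62.1% of CM and 37.4% of TSF cells. By plain ratio 2 of the 13 genes were higher in TSF by 1.5-fold or more, Ifnar1 (1.76-fold) and Tyk2 (2.90-fold). Both were low, with 0.157 and 0.0213 CP10k in CM. Ifngr2 was 1.65-fold lower in TSF by plain ratio. Of the 9 factors of the class I promoter outside Nlrc5, none passed. Some were too low in CM to pass as lower, and by plain ratio 3 were lower and 2 higher by 1.5-fold or more. The most abundant of the 9 were Rela (0.989 CP10k in CM and 0.343 in TSF) and Nfkb1 (0.626 and 0.668), the NF-kB subunits. Rela was seen in 79.3% of CM and 56.1% of TSF cells, and Nfkb1 in 72.4% and 70.5%.

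MHC class II genes, which are expressed mainly by professional antigen-presenting cells but can be induced by interferon gamma elsewhere, were also lower. Of 7, 5 passed 1.5-fold and 0 were higher, with a median log2 fold change of -1.27. The invariant chain Cd74 had 21.5 CP10k in CM and 4.23 in TSF, and H2-Aa had 4.49 and 0.562. H2-Ab1, H2-Eb1 and H2-DMa had 2.64, 3.47 and 1.82 in CM and 0.509, 0.475 and 0.254 in TSF. Their transactivator Ciita was seen in 12 of 29 CM cells and 5 of 139 TSF cells.

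**Figure D4:**
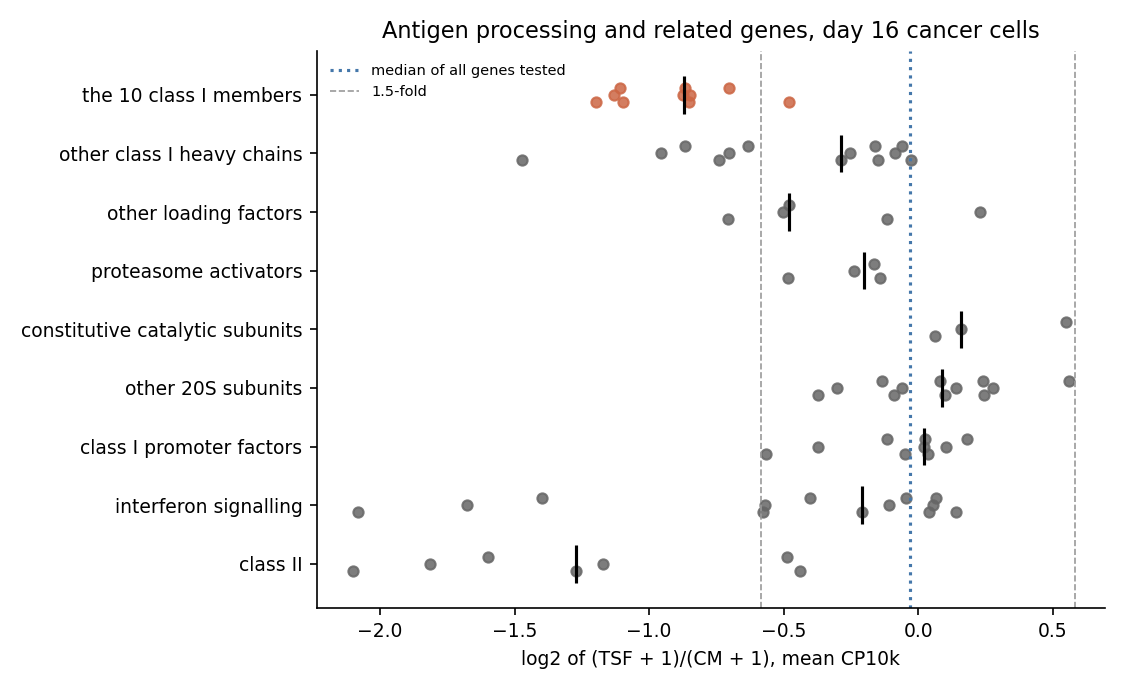
Log2 of (TSF + 1)/(CM + 1) of mean CP10k for each gene tested, by list. Points are genes, black bars list medians, the dotted line the median of all genes tested (-0.03) and the dashed lines 1.5-fold. The members (median -0.87) and class II genes (-1.27) lie to the left, and the constitutive catalytic subunits (0.16) and other 20S genes (0.09) lie near 0.

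Markers of other lung cells were read in the same cells, and their part in the values of the members was not tested. In the CM cells 11 of 12 leukocyte markers were at 0, Ptprc (CD45) among them, and their summed level was 0.00958 CP10k. In the TSF cells 2 of 12 were at 0 and the sum was 1.17 CP10k. Of this sum S100a9 gave 0.685 and S100a8 gave 0.300, seen in 4 and 2 of 139 TSF cells. A count of 0 in 29 CM cells has an exact 95% upper limit of 11.9% of cells. The most widely seen was Coro1a in TSF, in 6.47% of cells, and Cd79a in CM, in 3.45% (1 cell). Endothelial markers summed to 0.0948 CP10k in CM and 0.259 in TSF, fibroblast markers to 0.498 and 1.03, and alveolar markers to 0 and 0.0591. Of the fibroblast sums Pdgfra gave 0.407 in CM and 0.426 in TSF, seen in 44.8% and 45.3% of cells. Dcn gave 0.0907 in CM and 0.526 in TSF.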

How the data were processed

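Lungs were profiled with 5' 10x Genomics single-cell libraries. The authors used Cell Ranger to map reads to GRCm38.p6, to which the CD90.1 sequence had been added, imported counts with Seurat 4.1.0, subtracted ambient RNA with a customised SoupX at a raised contamination fraction, filtered cells, and assigned cell types by hand from clusters. The authors took out sub-clusters with markers of several cell types as multiplets, but removed no doublets from the cancer cells, which they had identified by CD90.1 expression of clusters. No doublet caller was run here. The deposited table gives, for the cancer cells of each day 16 library, the mean CP10k, the number of cells with a UMI and the percent of cells with a UMI. The deposited UMI counts per cell, after ambient correction, gave the depth. The same table holds the authors' fold changes, p-values, q-values and ranking, and another their enrichment scores, and none of these were used. The 5 samples described hold 3 day 11 libraries that have no expression values by gene here. Another 2 libraries listed per cell were left out.

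A gene was tested where 10% or more of the TSF or of the CM cancer cells had a UMI. A gene was called lower at 1.5-fold or more of mean CP10k plus a pseudocount of 1, or, by the share of cells, at 20 percentage points or more. Shares have exact Clopper-Pearson intervals at the 95% level, for counting error only. With 1 library per group no p-value was computed. The fold calculation was checked by putting known fold changes, without noise, into the CM means of abundant genes. Promoters came from RefSeq (GRCm38.p6) and gene coordinates from GENCODE M21 (GRCm38). Members and lists were chosen with earlier results of these data known. Named genes were the members and, of each list, those past 1.5-fold and the 2 most abundant, and others were named after their values were seen. For the interferon list, 1 gene is not reported here. Alternatives varied the pseudocount, the total, the centring, the filter and the thresholds. Values were computed with pandas 2.3.3 and numpy 2.4.6 in Python 3.11.15, intervals with scipy 1.17.1, and figures with matplotlib 3.10.9.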

Additional observations from a re-analysis of the deposited data

How the results depend on the processing

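All 10 members stayed lower in TSF under every pseudocount and scaling tried, with log2 fold changes from -2.79 to -0.45. With a pseudocount of 0.1, or with plain ratios, all 10 passed 1.5-fold, but 17.3% and 29.9% of all genes tested then did too (1762 and 3027 genes lower, against 199). Among genes with a mean of at least 1 CP10k over both libraries, a limit chosen after seeing the data, 9 of 9 members and 19.0% of 1526 genes were lower by plain ratio. At 2-fold, 4 members and 0.529% of all genes (54) passed. With no filter, 9 members and 1.36% of 14735 genes were lower by 1.5-fold. With a filter at 50% of cells, 9 of 9 members and 4.11% of 4555 genes were. Without ribosomal and mitochondrial genes in the totals, 9 members and 2.27% of all genes tested were lower. When centred on the median, 9 members and 1.70% were lower. At 10 percentage points, 4 members and 16.1% of all genes were seen in fewer TSF cells. The members' median log2 fold change was -1.15 with a pseudocount of 0.1, -1.18 by plain ratio, -0.83 with totals without ribosomal and mitochondrial genes (26.9% of TSF and 21.4% of CM CP10k), -0.84 when centred on the median of all genes, and -0.83 per cell with a UMI. For all genes tested the medians were -0.13, -0.20, -0.02, 0 and -0.06 in the same order. In the other 8 pathway lists together, 15 of 66 genes were lower by 1.5-fold and 0 higher. With a pseudocount of 0.1, 28 were lower and 4 higher, and by plain ratio 34 and 6. Without ribosomal and mitochondrial genes in the totals, 18 were lower and 2 higher, 1 constitutive catalytic subunit and 1 other 20S gene. Centred on the median, 15 were lower and 1 other 20S gene was higher. The cause was not tested. No paired analysis was possible because each group had 1 library.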

Other observations

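The MHC of chromosome 17 also holds genes with no role in antigen presentation, and these were read as neighbours of the members. Between the start of Tapbp and the end of H2-D1 (GRCm38 chromosome 17, 33915899 to 35267499) 58 genes were tested. Besides 7 members and 7 other H2 or listed genes there were 44 others, and 1 of them (2.27%) was lower in TSF by 1.5-fold or more, with 0 higher. The 1 gene was the heat shock chaperone Hspa1b, named after its values were seen, with 4.02 CP10k in CM and 0.932 in TSF. Many of the 44 had a mean in CM too low to pass as lower on this scale, even with no UMI in TSF. For those genes the count could not have come out otherwise. On the same scale the median log2 fold change of the 44 was -0.05, beside -0.03 for all genes tested.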
